A study of Mus musculus with 6 samples.

Results

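The 35 genes described here act in G2 phase, mitosis and cytokinesis: cyclins and CDK1, mitotic kinases, the spindle checkpoint, kinetochore proteins, kinesins and the cytokinesis machinery. They were chosen by name, with no measured value in the rule, but with earlier results of these data known. Each matched 1 Ensembl ID among the 23154 in the count tables. All 35 also passed the filter on low counts that left 12509 genes for testing. They were measured by RNA-seq in C2C12, an established mouse myoblast line, in 3 libraries labelled HA-NUR77 and 3 labelled GFP. The first group is a stable line with pINDUCER20b-HA-NUR77, a doxycycline-inducible vector for an HA-tagged form of the nuclear receptor NUR77, and the second a stable line with pINDUCER20b-GFP. Both groups received doxycycline at 1 µg/mL for 18 hours, starting 24 hours after seeding, in medium with 10% fetal calf serum, and each library came from its own dish. The labels give 1 line per construct and no uninduced library, so differences between the lines cannot be told apart from those between the constructs. The growth text of the GFP libraries also names HA-NUR77, and groups were taken from the titles. The libraries of each construct are numbered 1 to 3, without a statement that a number marks a shared day.

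Genes of this kind are silent in resting cells and are switched on together late in the cell cycle. The MuvB complex recruits B-MYB and then FOXM1 to a promoter element called the CHR, and the DREAM complex of MuvB with pocket proteins and E2F4 represses the same promoters in cells that have left the cycle. Myoblasts leave the cycle for good when they differentiate and fuse, so in a muscle culture these transcripts come mainly from the cells that still divide. In bulk RNA, fewer dividing cells and less RNA per dividing cell cannot be told apart.

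The 35 genes together took 0.0207% to 0.0639% of all counts, with 3106 to 14592 reads per library out of totals from 13906096 to 22821446. Per kilobase of exon their mean level over the 6 libraries had a median of 2.1 CPM per kb, against 6.23 over all genes tested, and ran from 0.367 for Cdc25c to 5.25 for Kif20a. The order Kif20a, Top2a (4.99), Cdc20 (4.91), Tpx2 (4.86) and Ube2c (4.26) at the top differed by less than the spread between libraries. Mouse Nr4a1, the gene for NUR77, had 437, 445 and 355 reads in HA-NUR77 and 327, 196 and 417 in GFP, with no difference past the test (edgeR adjusted p = 0.698). The labels do not name the species of the insert, so Nr4a1 does not check the labels. The strand setting of the counting is not given either, and 6 of the genes share over 10% of their exon bases with a gene on the opposite strand, so their reads are uncertain to that extent. These are Kif20a with Cdc23 (29.3%), Ube2c with Tnnc2 (22.8%), Kif4 with Pdzd11 (15.1%), Cdc25c with Gm3550 (12.7%), Ccna2 with Exosc9 (12.5%) and Prc1 with Rccd1 (11.1%). Ccnb1, Ccnb2 and Kif4 also have processed pseudogenes, which could take some of their reads.

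The largest differences among the 35 genes lay between replicate numbers, not between constructs. In both constructs the library numbered 2 had the highest levels: both number 2 libraries stood above the other 4 for 32 of the 35 genes, against 6.79% of all genes tested, and below them for 0, against 6.48%. The exceptions were Mybl2, Cdk1 and Kif11. HA-NUR77 2 was the highest library for 22 genes and GFP 2 for 13, while GFP 3 was the lowest for 29. In the HA-NUR77 line the level in library 2 was a median of 2.11 times that in library 1 and 1.69 times that in library 3, with Kif11 the only gene below library 3. In the GFP line the medians were 2.5 and 3.11, and all 35 genes were higher in library 2. The median ratio over all genes tested was between 1 and 1.01 in these comparisons. Of the number 2 libraries, HA-NUR77 2 had the most counts of the 6 and GFP 2, with 14626157, the second fewest.

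**Figure D1:**
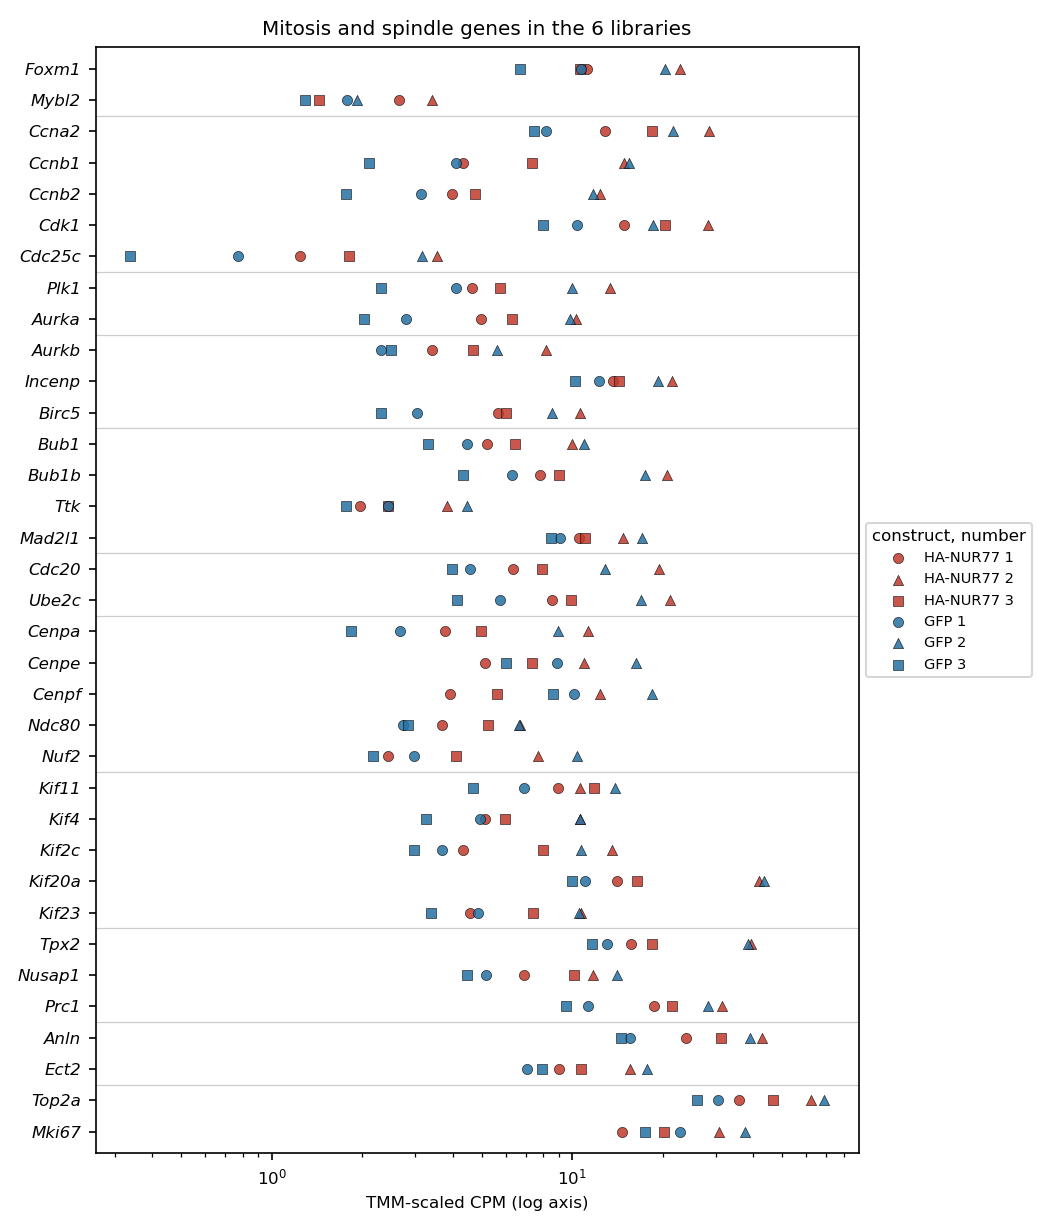
Level of each of the 35 genes, in CPM scaled by library total and TMM factor on a log axis, with 1 point per library; red is HA-NUR77, blue is GFP, and circles, triangles and squares are numbers 1, 2 and 3. Horizontal lines part the genes by role. The triangles lie to the right of all other points in 32 genes, and the GFP 3 square is the leftmost point in 29.

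Replicate number was tested with construct in the same edgeR fit, by a quasi-likelihood F test of the number term with adjustment over all 12509 genes. The test called 28 of the 35 genes, against 16.3% of all genes tested. The fitted difference of number 2 over number 1 had a median of 2.24-fold and over number 3 of 2.15-fold, while number 3 and number 1 differed by a median log2 of 0.05. Those not called were Kif11 (adjusted p = 0.575), Top2a (0.151), Nusap1 (0.14), Ccnb1 (0.0918), Mybl2 (0.0753), Anln (0.0608) and Prc1 (0.0512). For Ccnb1 the fitted difference between numbers 2 and 1 was the largest of the 35, at 3.59-fold, while at number 3 its constructs differed by a log2 of 1.75. Without GFP replicate 2 the test called 15 of the 35 and without HA-NUR77 replicate 2 it called 20. Calls over all genes also fell in these fits, from 2035 to 1250 and 592. In every other alternative the test called between 27 and 34 of the 35. Bub1b, Ccna2, Ccnb2, Cdc20, Cenpa, Ect2, Foxm1, Kif20a, Tpx2 and Ube2c were called in all 14 alternatives, and number 2 stayed above number 1 for all 35 genes in each.

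Between the constructs, 0 of the 35 genes passed edgeR's quasi-likelihood test with construct as the only term, against 12.4% of all genes called higher in HA-NUR77 and 13.2% lower. DESeq2 and limma-voom also called 0. By edgeR 1 of the 35, Cdk1, had an unadjusted p under 0.05, against 5079 of all 12509 genes tested. For none of the 35 did the constructs separate without overlap, against 23.0% of all genes with every HA-NUR77 library above and 22.5% with every one below. The standard errors of the log2 fold changes were wide, with a median of 0.45 among the 35 and 0.11 over all genes. Deviations of same-numbered libraries from their group means correlated across all genes, so a blocked fit, with a term for the replicate number, stands beside this one. With the block the median standard error of the 35 fell to 0.18, and 12 were higher and 1 lower in HA-NUR77, against 23.5% and 24.6% of all genes. The median log2 fold change of the 35 was 0.32 without the block and 0.37 with it, against 0.01 over all genes in both fits.

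The 12 genes called higher with the block were Mybl2, Ccna2, Cdk1, Plk1, Aurkb, Birc5, Bub1b, Cdc20, Ube2c, Cenpa, Kif2c and Prc1, and the 1 called lower was Cenpf. Leaving out both libraries of number 1, 2 or 3 in turn left 10, 18 or 9 higher and 1, 1 or 3 lower. Over all genes these fits called 1946, 2324 or 2502 higher and 2272, 2503 or 2736 lower. The 3 of the 35 lower without number 3 were Cenpe, Cenpf and Mki67. Ccna2, Cdk1, Aurkb, Birc5, Cdc20, Ube2c and Cenpf were called in each of these fits and with correction for transcript length and GC content. The difference between constructs was not the same at each number. HA-NUR77 was above GFP for 29 of the 35 genes at number 1, 22 at number 2 and 34 at number 3, with median log2 differences of 0.33, 0.06 and 0.96. Over all 12509 genes tested it was above GFP for 6432, 6255 and 6284, with medians of 0.01, 0.00 and 0.00. Taken with its sign, HA-NUR77 minus GFP was highest at number 3 in 33 of the 35, a count not made over all genes. In all, 21 genes were above GFP at all 3 numbers, against 35.5% of all genes tested, while only Cenpf was below at all 3, against 34.8%. With 1 library per construct and number, whether the difference varies with the number could not be tested.

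**Figure D2:**
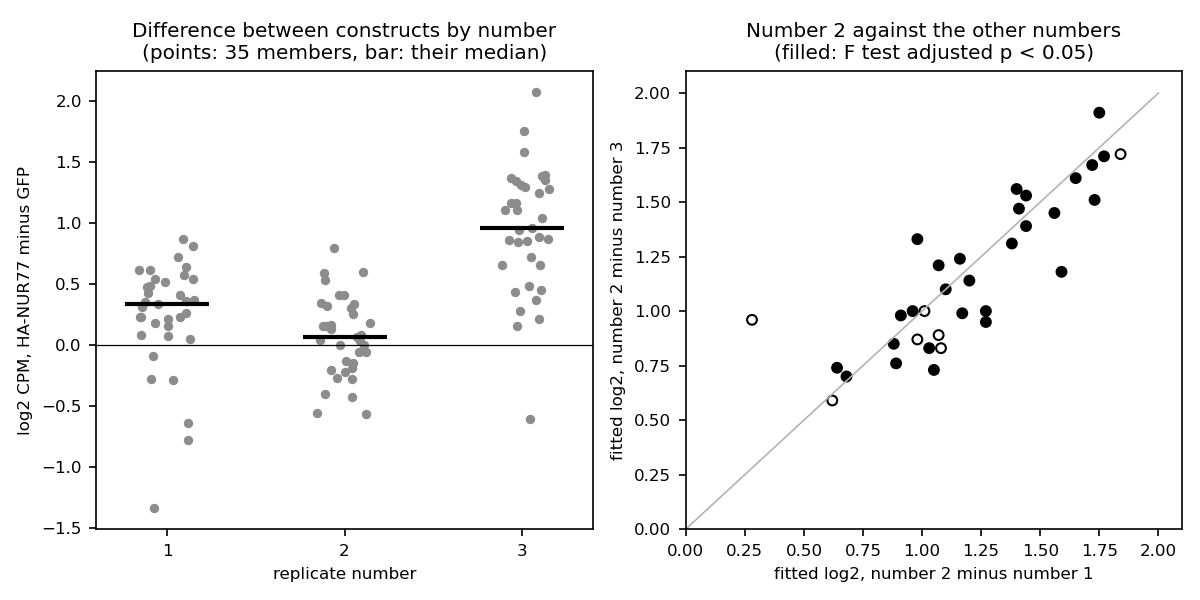
Left, log2 CPM in HA-NUR77 minus log2 CPM in GFP for the same-numbered libraries, with 1 point per gene, scattered sideways for legibility, and a bar at the median of the 35 genes (0.33, 0.06 and 0.96). Right, the fitted log2 difference of number 2 over number 1 against that over number 3, with filled points for the 28 genes called by the F test and a line where the differences are equal; every gene lies above 0 on both axes.

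**Figure D3:**
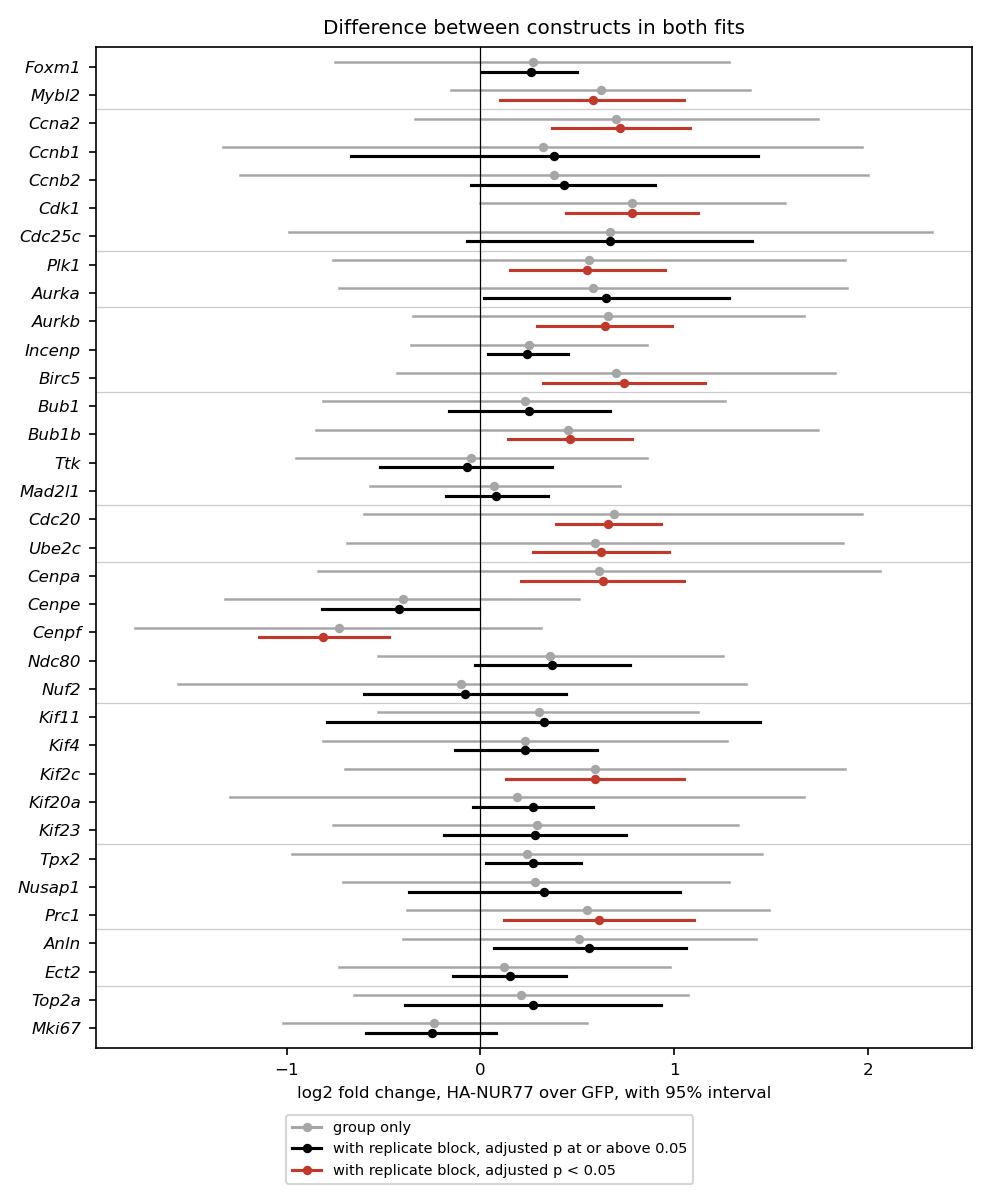
Log2 fold change of HA-NUR77 over GFP with its 95% interval for each of the 35 genes, in the fit with construct only (grey) and with the replicate number as a block (black, or red where the adjusted p was under 0.05). The grey intervals are wide and none passed, while with the block 12 genes passed above 0 and Cenpf below 0.

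Of the 2 transcription factors, Foxm1 was called between numbers and Mybl2 only between constructs with the block. Foxm1, which activates G2 and mitotic genes, stood at 11.2, 22.9 and 10.6 CPM in HA-NUR77 1, 2 and 3 and at 10.7, 20.3 and 6.7 CPM in GFP 1, 2 and 3. The number 2 libraries were high in both lines, by 1.97-fold over number 1 and 2.52-fold over number 3 (F test adjusted p = 0.000436), and the constructs overlapped. Its fold change between constructs was 0.27 on the log2 scale (SE 0.43), with an adjusted p of 0.0754 in the blocked fit. Mybl2, which encodes B-MYB, was low, at 2.64, 3.41 and 1.44 CPM against 1.78, 1.92 and 1.29 CPM. Here the HA-NUR77 library was above its GFP partner at each number, and number 3 was the lowest in both lines. The blocked fit called it higher, by 1.49-fold (adjusted p = 0.0446, and 0.203 without the block). This call was lost without number 1 and also without number 2.

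Of the 5 genes for cyclins, CDK1 and its phosphatase, 4 were called between numbers, and Ccna2 and Cdk1 between constructs with the block. Ccnb2, which encodes cyclin B2, a partner of CDK1 at entry into mitosis, stood at 3.98, 12.4 and 4.74 CPM in HA-NUR77 and 3.14, 11.7 and 1.76 CPM in GFP. Number 2 was 3.37-fold above number 1 and 3.77-fold above number 3 (adjusted p = 0.00166), while the constructs were close at number 2. Ccnb1, for cyclin B1, had the same order, at 4.34, 14.8 and 7.32 CPM against 4.09, 15.4 and 2.1 CPM. Cdc25c, the phosphatase that activates CDK1, was the least abundant per kb, with 24, 81 and 25 reads against 13, 46 and 5, and passed the F test (adjusted p = 0.0153). Cdk1 itself stood at 14.8, 28.2 and 20.4 CPM in HA-NUR77 and 10.4, 18.6 and 7.98 CPM in GFP. Each HA-NUR77 library was above its GFP partner, and the lowest of them was below GFP 2, so the groups overlapped. Number 2 was 1.85-fold above number 1 and 1.7-fold above number 3 (F test adjusted p = 0.018). Between constructs the log2 fold change was 0.78 (SE 0.34, adjusted p = 0.123), and with the block 0.78 (SE 0.15, adjusted p = 0.00286), the largest rise of the 35. Ccna2, for cyclin A2, which partners CDK2 in S phase and CDK1 in G2, stood at 12.8, 28.6 and 18.4 CPM against 8.19, 21.6 and 7.44 CPM. It was 1.65-fold higher with the block (adjusted p = 0.00502, and 0.274 without it).

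The promoters of the genes with the smallest p in each comparison are shown because the CHR and the CCAAT box, which binds NF-Y, are the elements known for this programme. Taken by smallest p between constructs and then between numbers, among genes that could be shown, they are Cdk1 and Mybl2, and Cdc20 and Bub1b. The 250 bases before the RefSeq start on GRCm38.p6 are given, 5′ to 3′ on the strand of the gene. Capitals mark TTTGAA (the CHR), TTCGAA (a CHR variant), CCAAT and AAAGGTCA (the NBRE, which binds NUR77), each on either strand, where a match on the other strand reads as its reverse complement.
Cdk1 promoter, chr10:69352913-69353162, minus strand: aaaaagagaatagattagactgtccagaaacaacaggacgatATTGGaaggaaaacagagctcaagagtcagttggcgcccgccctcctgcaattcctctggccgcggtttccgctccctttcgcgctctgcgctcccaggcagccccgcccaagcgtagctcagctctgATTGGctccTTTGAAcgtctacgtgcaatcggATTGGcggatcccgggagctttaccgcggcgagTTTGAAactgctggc
Cdc20 promoter, chr4:118437344-118437593, minus strand: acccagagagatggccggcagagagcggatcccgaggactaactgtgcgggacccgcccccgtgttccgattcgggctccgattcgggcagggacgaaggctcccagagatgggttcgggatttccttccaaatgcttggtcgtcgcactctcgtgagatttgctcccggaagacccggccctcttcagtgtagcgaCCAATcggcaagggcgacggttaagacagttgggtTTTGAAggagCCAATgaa
Bub1b promoter, chr2:118597961-118598210, plus strand: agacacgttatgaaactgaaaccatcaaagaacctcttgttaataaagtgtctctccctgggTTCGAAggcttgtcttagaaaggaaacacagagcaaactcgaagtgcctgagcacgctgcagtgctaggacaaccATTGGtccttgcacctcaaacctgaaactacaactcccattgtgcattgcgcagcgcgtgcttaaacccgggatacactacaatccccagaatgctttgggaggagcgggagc
Mybl2 promoter, chr2:163054385-163054634, plus strand: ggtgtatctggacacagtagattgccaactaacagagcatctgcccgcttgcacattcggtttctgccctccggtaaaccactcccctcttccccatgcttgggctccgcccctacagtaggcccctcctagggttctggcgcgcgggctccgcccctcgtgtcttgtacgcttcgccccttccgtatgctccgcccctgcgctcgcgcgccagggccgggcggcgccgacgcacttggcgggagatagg

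Cdk1 holds TTTGAA at 71 and at 15 bases before the start, Cdc20 holds it at 18 bases before the start, and Bub1b holds it at 41 bases after the start, outside the stretch shown. None of the searched letters occurs in the Mybl2 stretch. Over whole windows of 250 bases before to 50 after the start, 28 of the 35 genes had an entry, and 20 of these held TTTGAA on either strand, which is 71.4%, against 20.2% of the 27025 genes in the table and 14.1% of the genes tested. CCAAT was in 20 of the 28, or 71.4%, against 41.1% of all genes, and 17 held both, or 60.7%, against 7.97%. TTCGAA was in 3, or 10.7%, against 1.8%. AAAGGTCA was in 0 of the 28, against 1.7% of all genes. In these windows of 250 bases before the start and 50 after it, 45 of the 46 CCAAT matches lay before the start, 30 within 100 bases of it. The 26 TTTGAA matches, with 13 on each side, were denser per base after the start than before it. These are matches of letters, and draw no line between genes bound and not bound by any factor.

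Both mitotic kinases and all 3 genes of the chromosomal passenger complex were called between numbers. None was called between constructs without the block, and Plk1, Aurkb and Birc5 were with it. Plk1, the polo-like kinase that drives mitotic entry and exit, stood at 4.65, 13.3 and 5.74 CPM in HA-NUR77 and 4.09, 9.96 and 2.3 CPM in GFP. Number 2 was 2.65-fold above number 1 (F test adjusted p = 0.00155), and the blocked fit called Plk1 1.46-fold higher in HA-NUR77 (adjusted p = 0.0289, and 0.489 without the block). This call was lost with length and GC offsets and without number 2 or number 3, and without the block the log2 fold change of Plk1 was −0.07 when HA-NUR77 2 was left out. Aurka, the centrosome and spindle kinase, stood at 4.96, 10.3 and 6.32 CPM against 2.79, 9.82 and 2.03 CPM, with little difference between the constructs at number 2 and an adjusted p of 0.0828 with the block. Aurkb, the kinase of the passenger complex, which corrects attachments of chromosomes to the spindle, stood at 3.41, 8.17 and 4.67 CPM against 2.31, 5.63 and 2.5 CPM. HA-NUR77 was above GFP at each number by a log2 of 0.54, 0.53 and 0.87, and the blocked fit called it 1.56-fold higher (adjusted p = 0.00575, and 0.286 without the block). Birc5, which encodes survivin, the subunit that targets the complex to centromeres, stood at 5.64, 10.6 and 6.03 CPM against 3.03, 8.58 and 2.3 CPM. It was 1.67-fold higher with the block (adjusted p = 0.00825, and 0.312 without it). Incenp, the scaffold of the complex, ran from 10.2 to 21.4 CPM with the smallest standard error of the 35 (0.26), and its adjusted p with the block was 0.0525.

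All 4 checkpoint genes were called between numbers, and only Bub1b between constructs, with the block. Bub1b, for the checkpoint kinase-like protein BUBR1 that inhibits CDC20, stood at 7.81, 20.7 and 9.05 CPM in HA-NUR77 and 6.29, 17.4 and 4.33 CPM in GFP. Number 2 was 2.71-fold above number 1 and 2.9-fold above number 3 (adjusted p = 0.000642), and with the block the gene was 1.37-fold higher in HA-NUR77 (adjusted p = 0.0229, and 0.577 without it). Leaving out HA-NUR77 2 without the block turned its log2 fold change to −0.15, and the blocked call was lost without number 3. Its partners did not pass in either fit. Bub1, a kinetochore kinase, ran from 3.32 to 10.9 CPM, Ttk, the kinase MPS1 that starts the checkpoint signal, from 1.76 to 4.46 CPM, and Mad2l1, the MAD2 protein that binds CDC20, from 8.46 to 17.1 CPM. All 3 were highest in GFP 2, and their log2 fold changes with the block were 0.25, −0.07 and 0.08.

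Both partners of the anaphase-promoting complex, the ubiquitin ligase that ends mitosis, were called between numbers and, with the block, between constructs. Cdc20, its mitotic activator, stood at 6.36, 19.4 and 7.9 CPM in HA-NUR77 and 4.57, 12.8 and 3.99 CPM in GFP. It had the smallest p of the 35 between numbers, with number 2 at 2.94-fold over number 1 and 2.74-fold over number 3 (adjusted p = 0.000164). It also had the smallest between constructs with the block, at 1.58-fold (log2 0.66, SE 0.12, adjusted p = 0.000919, and 0.384 without the block). Ube2c, the ubiquitin-conjugating enzyme of the complex, stood at 8.58, 21.1 and 9.91 CPM against 5.75, 16.9 and 4.13 CPM. It was 1.54-fold higher with the block (adjusted p = 0.00847, and 0.45 without it). Its antisense neighbour Tnnc2, fast skeletal troponin C, stood far higher, from 704 to 1220 CPM, and was highest at number 3 in both lines.

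All 5 kinetochore genes were called between numbers, and with the block Cenpa was higher and Cenpf lower in HA-NUR77. Cenpa, the histone H3 variant that marks centromeres, stood at 3.77, 11.3 and 4.95 CPM in HA-NUR77 and 2.67, 8.93 and 1.83 CPM in GFP, and was 1.54-fold higher with the block (adjusted p = 0.019, and 0.493 without it). Its log2 fold change was −0.03 without the block and HA-NUR77 2, and the blocked call was lost without number 3. Cenpf, a large coiled-coil protein of the outer kinetochore, went the other way, at 3.93, 12.4 and 5.6 CPM in HA-NUR77 and 10.1, 18.4 and 8.59 CPM in GFP. It was below GFP at each number, by a log2 of 1.34, 0.56 and 0.61, and yet highest at number 2 in both lines. Its log2 fold change was −0.73 (SE 0.45, adjusted p = 0.256), and with the block −0.81 (SE 0.15, adjusted p = 0.00136). Cenpe, the kinetochore kinesin that aligns chromosomes, stood at 5.12, 10.9 and 7.32 CPM against 8.9, 16.3 and 6.02 CPM, lower in HA-NUR77 at numbers 1 and 2 and higher at number 3 (adjusted p = 0.0816 with the block). Ndc80 and Nuf2, which pair in the complex that grips microtubules, ran from 2.73 to 6.68 CPM and from 2.17 to 10.4 CPM. Neither passed between constructs, and both passed between numbers (adjusted p = 0.0144 and 0.00419).

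Of the kinesins, only Kif2c was called between constructs. Kif20a, which works in cytokinesis, was the most abundant of the 35 per kb, at 14.1, 41.8 and 16.4 CPM in HA-NUR77 and 11, 43.5 and 9.95 CPM in GFP. The number 2 libraries of both lines were close to each other and 3.4-fold above number 1 (adjusted p = 0.000642). The neighbour Cdc23, which shares exon bases with it, ran from 52.3 to 61.5 CPM with an adjusted p of 0.478 between numbers. Kif2c, which takes apart microtubule ends to correct attachments, stood at 4.34, 13.5 and 7.97 CPM against 3.68, 10.7 and 2.98 CPM and was 1.5-fold higher with the block (adjusted p = 0.0374, and 0.452 without it). Its blocked call was lost with length and GC offsets and without number 2 or number 3. Kif11, the motor that pushes spindle poles apart, was the gene that followed number least. It stood at 8.95, 10.6 and 11.8 CPM in HA-NUR77 and 6.88, 13.9 and 4.67 CPM in GFP, so HA-NUR77 3 was above HA-NUR77 2. Kif4, a chromosome-bound motor, and Kif23, of the midzone of the spindle, ran from 3.25 to 10.6 CPM and from 3.38 to 10.7 CPM and passed between numbers only.

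Among genes of spindle microtubules and cytokinesis, only Prc1 was called between constructs with the block. Tpx2, which activates Aurora A and nucleates spindle microtubules, had 303, 902 and 256 reads in HA-NUR77 and 220, 559 and 172 in GFP. As CPM this was 15.7, 39.4 and 18.4 against 13, 38.4 and 11.6, with number 2 at 2.71-fold over number 1 (adjusted p = 0.000275) and an adjusted p of 0.0617 between constructs with the block. Prc1, which bundles the midzone microtubules, stood at 18.7, 31.5 and 21.4 CPM against 11.3, 28.3 and 9.54 CPM and was 1.53-fold higher with the block (adjusted p = 0.0491, and 0.336 without it). The blocked call of Prc1 was lost without number 1. Nusap1, a microtubule bundling protein, ran from 4.47 to 14.1 CPM and passed in neither test. Anln, for anillin of the contractile ring, stood at 23.9, 42.7 and 31.3 CPM against 15.6, 39.1 and 14.5 CPM, with an adjusted p of 0.0656 with the block. Ect2, which switches on RHOA for the ring, ran from 7.06 to 17.7 CPM and passed between numbers only (adjusted p = 0.00272).

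The genes of mitotic chromosome structure, often used as proliferation markers, were not called between constructs in either fit of all 6 libraries. Mki67, for the Ki-67 protein that coats mitotic chromosomes, stood at 14.6, 30.8 and 20.2 CPM in HA-NUR77 and 22.9, 37.6 and 17.5 CPM in GFP. It was lower in HA-NUR77 at numbers 1 and 2 and higher at number 3, with a log2 fold change of −0.25 with the block (95% interval −0.59 to 0.08, adjusted p = 0.182). Top2a, topoisomerase II alpha, which untangles sister chromosomes, stood at 35.9, 62.1 and 46.7 CPM against 30.5, 68.8 and 26 CPM (log2 0.27, 95% interval −0.39 to 0.93 with the block). Both were highest at number 2 in each line, and only Mki67 passed between numbers (adjusted p = 0.0176). With the block, Mki67 was called lower in HA-NUR77 without number 3, and Top2a was called higher without number 2.

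Of 127 other mitotic genes tested, in 5 lists, 9 were higher and 4 lower in HA-NUR77, against 12.4% and 13.2% of all genes tested. In the blocked fit these were 33 and 14, against 23.5% and 24.6%. The median log2 fold change of the 127 was 0.18. Between numbers 48 of the 127 were called, against 16.3% of all genes tested. Both number 2 libraries were above the rest for 60, against 6.79%. Counts in each list below stand against the same shares. Among 37 other spindle, kinesin and cytokinesis genes, 22 were called between numbers, with number 2 a median of 1.71-fold over number 1, and only Haus8, of the augmin complex, was called between constructs (log2 fold change 0.42, adjusted p = 0.0385). Among 35 centromere, kinetochore and checkpoint genes 9 were called between numbers, and 3 were higher between constructs. These were Mad1l1, the MAD2 anchor (1.9-fold, adjusted p = 0.00142), Bub3 (1.22-fold, adjusted p = 0.0244) and Cenpw (1.79-fold, adjusted p = 0.0417), while Cenpc1 was lower (log2 −0.47, adjusted p = 0.0326). Of 18 other mitotic kinases and regulators, 7 were called between numbers, and Ensa, an inhibitor of the phosphatase PP2A (1.39-fold, adjusted p = 0.0113), and Melk (2.01-fold, adjusted p = 0.0463) were higher. Condensin and cohesin genes and subunits of the anaphase-promoting complex, many of which are made throughout the cycle, had median log2 differences of 0.05 and 0.01 between numbers 2 and 1, over genes that went both ways. Between numbers 8 of 20 condensin and cohesin genes and 2 of 17 ligase genes were called, against 16.3% of all genes. Pttg1, for securin (3.11-fold for number 2 over number 1), Espl1, for separase (2.29-fold), and the condensin gene Ncapd2 (1.84-fold) were high in number 2, while Nipbl was lower there, at 0.64 times number 1. Cohesin genes called between constructs were lower: Nipbl, the cohesin loader, had a log2 fold change of −0.99 (adjusted p = 0.0223), Pds5b −0.45 (0.0269) and Pds5a −0.40 (0.0463), and the condensin gene Ncaph2 was higher (0.29, adjusted p = 0.0341). Of the 17 ligase subunits and regulators, Anapc16 and Cdc26 were higher, by 1.4-fold and 1.26-fold (adjusted p = 0.00759 and 0.0167).

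Genes of earlier phases were tested in the same way. Over all genes tested, 16.3% were called between numbers, and 12.4% were higher and 13.2% lower in HA-NUR77. With the block 23.5% were higher and 24.6% lower. Of 47 DNA replication genes 8 were called between numbers, close to the share of all genes, with a median of 1.09-fold for number 2 over number 1. In HA-NUR77 9 were higher and 0 lower (24 and 1 with the block). Without the block, 19 had an unadjusted p under 0.05 by edgeR in either direction, as did 5079 of all 12509 genes tested. Leaving out 1 library gave 1 to 11 replication genes higher. There was 1 without GFP 1, 3 without HA-NUR77 1, 5 without HA-NUR77 2, HA-NUR77 3 or GFP 3, and 11 without GFP 2. Over all genes the count higher fell from 1549 to 642 without GFP 1, 672 without HA-NUR77 1 and 927 without GFP 2. It was 1258 without HA-NUR77 2, 1049 without HA-NUR77 3 and 1489 without GFP 3. The 3 replication genes with the smallest adjusted p in all 6 libraries were Rpa2 (1.49-fold, adjusted p = 0.0115), Gins3 (1.57-fold, 0.0136) and Rpa1 (1.25-fold, 0.016). Of 10 G1 cyclins, kinases and CDK inhibitors tested, 5 were called between numbers, among them Ccnd1 (F test adjusted p = 0.00442). Without HA-NUR77 2 this count was 0, while calls over all genes fell from 2035 to 592. None of the 10 had both number 2 libraries above the rest. Between constructs 4 were higher, among them Ccnd1, for cyclin D1, which ran from 17.1 to 30.7 CPM against 4.94 to 7.55 CPM (3.59-fold, adjusted p = 0.00268), Ccnd2 (1.66-fold, adjusted p = 0.00999) and Cdkn2d, for the CDK4 inhibitor p19 (1.41-fold, adjusted p = 0.0192). Of the 12 genes of the DREAM and MuvB complexes and pocket proteins, edgeR called 0 between constructs. An unadjusted p under 0.05 was found for 4 of the 12, against 5079 of all 12509 genes tested. The blocked fit called 3 higher and 2 lower, and the F test called 1 between numbers. The difference in response between these lists and the 35 genes was not tested.

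**Figure D4:**
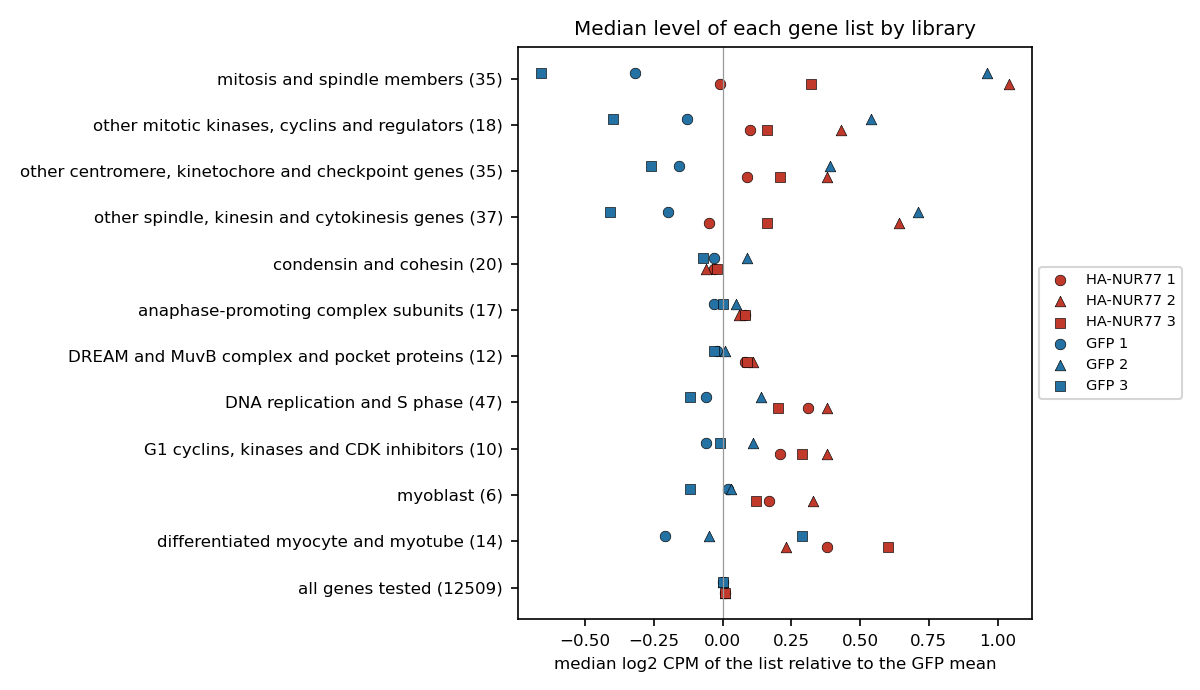
Median level of each gene list in each library, as log2 CPM relative to the mean of the GFP libraries, with the number of genes tested in brackets; red is HA-NUR77, blue is GFP, and circles, triangles and squares are numbers 1, 2 and 3. The 35 genes spread from −0.66 in GFP 3 to 1.04 in HA-NUR77 2, while all genes tested lie at 0.00 or 0.01.

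Markers of differentiated muscle were high in every library and also differed by number and construct. The 14 myocyte and myotube markers summed to 22000, 22200 and 25800 CPM in HA-NUR77 and 14900, 16600 and 21000 CPM in GFP, none was at 0, and number 3 was the highest in both lines. Between numbers 11 of the 14 were called, against 16.3% of all genes tested. Between constructs 3 were higher and 1 lower, against 12.4% and 13.2%, and with the block 10 and 1, against 23.5% and 24.6%. The most abundant per kb was Mylpf, a myosin light chain, from 3970 to 4950 CPM against 2490 to 3890 CPM (adjusted p = 0.092), and the perinatal myosin Myh8 (1.73-fold, adjusted p = 0.00331) and the adult myosin Myh1 (log2 −0.93, adjusted p = 0.0106) were called. The 6 myoblast markers summed to 5960, 6630 and 6210 CPM against 4780, 5600 and 5110 CPM, with Des the most abundant per kb and Cdh15 (1.45-fold, adjusted p = 0.0054) the 1 called between constructs. The part of these differences in the levels of the 35 genes was not tested. The 6 macrophage markers summed to 1.6 to 3.88 CPM and the 4 endothelial ones to 0.406 to 1.3 CPM, and the 4 adipocyte markers had no read in any library. Of the macrophage markers the most abundant per kb was Cd68 and the 1 called was Csf1r (log2 1.71, adjusted p = 0.0443), and of the endothelial ones Tek was the most abundant per kb.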

How the data were processed

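The deposited values are raw read counts for Ensembl genes in a separate table for each library, without summary lines. TopHat2 2.1, HTSeq, DESeq2 and the build mm10 are listed in the submitters' processing notes, and the annotation release and strand setting are not given in the sources used here. Libraries were stranded poly(A) preparations, per the labels' protocols. Symbols, places and exon lengths came from GENCODE M21 on GRCm38, which matched 22888 of 23154 IDs. Promoter sequences came from RefSeq on GRCm38.p6.

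Counts were tested with edgeR 4.0.16 (R 4.3.3): filterByExpr with a minimum count of 10, TMM factors, robust quasi-likelihood fits, and Benjamini-Hochberg adjustment over 12509 genes at 0.05. Construct was tested alone and with the replicate number as a block, and the number by an F test in the blocked fit, which has 2 residual degrees of freedom. CPM values are scaled by total and TMM factor. The standard error is the log2 fold change over the root of F. Alternatives used DESeq2 1.42.0, limma-voom (limma 3.58.1), other factors and filters, thinned counts, length and GC offsets, and libraries left out. The fits were tested on simulated data that held a difference by construct or by number, not both. Those data do not cover a construct difference that varies with the number.

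Deviations of same-numbered libraries correlated at 0.25, 0.55 and 0.47 for numbers 1, 2 and 3, and differently numbered ones at −0.44 to −0.05. Deviations from a mean of 3 libraries cancel out, so positive same-number values bring negative ones elsewhere, which add no separate support. The pairing rests on the same-number values, as no label states it. With construct alone, p-values rest on the spread between dishes of 1 line per construct. In the blocked fit, also for the number, they rest on the spread left after construct and number are fitted. No 2 libraries of a construct agreed within sampling noise (chi-square per degree of freedom of at least 11.4).

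The members, the lists and the promoter rule were chosen with earlier results of these data known. All members are accounted for. Values per library were given for the 10 with the smallest p between numbers and, in each role, the 1 with the smallest p between constructs. Of each pathway list up to 3 called genes are named, and of each marker list the most abundant and up to 2 called. The other members with values per library, Cenpw, Pds5a, Pttg1, Espl1 and Ncapd2 were added after their values were seen.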

Additional observations from a re-analysis of the deposited data

How the results depend on the processing

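Number 2 stayed above number 1 for all 35 genes in all 14 alternatives, and the F test called 28 genes, or 15 to 34 with 1 library left out (15 without GFP replicate 2). All genes called between numbers were 2035, or 1126 by DESeq2 and 592 to 2603 with 1 library left out. Without both number 2 libraries the F test has no number 2 to compare. Between constructs 1549 genes were higher and 1655 lower. With the replicate block these were 2942 and 3071, and with the block and length and GC offsets 2984 and 2868. Of the 35, 0 were higher and 0 lower without the block, and 12 and 1 with it, also with length and GC offsets. The block calls were lost for Plk1 and Kif2c with these offsets.

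Leaving out 1 library gave 642 to 1489 genes higher, 850 to 1572 lower, 0 to 8 of the 35 higher (8 without GFP replicate 2) and 0 to 1 lower (Cenpf without HA-NUR77 replicate 2). Without both number 2 libraries, chosen after seeing the data, 691 genes were higher and 1081 lower, and 7 and 1 of the 35. With the block and without number 1, 2 or 3, also added later, 10, 18 and 9 of the 35 were higher and 1, 1 and 3 lower. Genes higher and lower were 1946 and 2272 without number 1, 2324 and 2503 without number 2 and 2502 and 2736 without number 3.

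The log2 fold change between constructs changed sign in at least 1 alternative for 19 of the 35 genes. None of them had passed with construct alone, and Plk1, Bub1b and Cenpa had passed with the block. Ttk was 0.02 with limma-voom and with the block without number 1, and 0.05 without number 2, with or without the block. Nuf2 was 0.13 with limma-voom, 0.01 with length and GC offsets, 0.02 with these and the block, and 0.31 and 0.29 without number 2, without and with the block. With the block and without number 3, Ccnb1 was −0.01, Mad2l1 −0.04, Kif11 −0.06 and Kif23 −0.02. With 1 library left out, Foxm1 ran from −0.20 to 0.79, Ccnb1 from −0.31 to 1.51, Ccnb2 from −0.34 to 1.53, Plk1 from −0.07 to 1.31, Bub1 from −0.09 to 0.90, Bub1b from −0.15 to 1.25 and Ttk from −0.39 to 0.40. Mad2l1 ran from −0.11 to 0.46, Cenpa from −0.03 to 1.58, Cenpe from −0.75 to 0.07, Nuf2 from −0.67 to 0.90, Kif4 from −0.17 to 0.83, Kif20a from −0.49 to 1.22 and Kif23 from −0.07 to 0.88. Tpx2 ran from −0.30 to 1.00, Ect2 from −0.14 to 0.66, Top2a from −0.04 to 0.77 and Mki67 from −0.58 to 0.12. The cause was not tested.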

Other observations

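Genes outside the 35 shared the excess in number 2. Ranked by the smaller of their fitted differences of number 2 over numbers 1 and 3, the leading 40 genes past the F test held 15 of the 35, 13 genes of the other mitotic lists and 12 in no list, with log2 excesses from 1.08 to 1.92. This ranking was chosen after the values were seen and is a description. The largest was Pif1, a DNA helicase (log2 1.92 over number 1 and 2.00 over number 3, adjusted p = 0.00325), at a low level of 1.14 and 0.869 CPM in HA-NUR77 and GFP. Others in no list were Pimreg (1.90 and 1.54), Cdkn3, a phosphatase of CDKs (1.69 and 1.36), and Cdca3 (1.60 and 1.23). Among them were also the interferon-induced Oas2 (1.09 and 1.97) and the chemokine receptor gene Cxcr6 (1.55 and 1.27), which are not known as mitotic genes. Both were low in 1 construct. Oas2 stood at 0.178, 0.687 and 0.541 CPM in GFP 1, 2 and 3, and Cxcr6 at 0.31, 0.393 and 0.215 CPM in the HA-NUR77 libraries.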
